A study of Homo sapiens with 9 samples.

Results

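Genes that changed in the same direction in each of 2 FBXL12 knockout clones of MDA-MB-231 cells are described here. MDA-MB-231 is an established human breast cancer cell line of the basal B, mesenchymal-like kind. All 9 libraries of the series were used: 3 of cells transduced with a scrambled control guide RNA (WT), 3 of knockout clone 1 (KO1) and 3 of knockout clone 2 (KO2). A gene was taken as shared when the mean of both clones differed from WT at an adjusted p under 0.05 and its log2 change had the same sign in KO1 and in KO2. Of 17759 genes tested, 5932 were shared, 2962 rising and 2970 falling. Both clones were set against the same 3 WT libraries, so a chance deviation of WT moves both changes together. A knockout clone grows from 1 cell, whereas the control is a transduced population, so clonal origin and genotype cannot be told apart. The labels do not say whether the libraries of a group came from separate cultures, and p-values therefore reflect the spread among these libraries only, which may be technical.

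FBXL12 encodes an F-box protein with leucine-rich repeats. F-box proteins are the interchangeable substrate receptors of SCF ubiquitin ligases, which mark proteins for the proteasome, and the series title names FANCD2, a protein of interstrand crosslink repair, as one that FBXL12 degrades. MDA-MB-231 cells are known for secreting interleukins and chemokines. In this inflammatory programme IL-1 alpha and IL-1 beta act through the IL-1 receptor and the kinases of the IRAK family to release NF-kB, which binds kappa B sites in the promoters of chemokine and cytokine genes, IL1B among them.

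The 9 libraries held between 52427841 and 97243363 counts, and transcripts of the mitochondrial genome took between 3.28% and 5.39% of them, with the 3 highest shares in KO2. Levels are in CPM, the count of a gene scaled to a fixed library total after TMM normalization. Summed markers of the basal B state lay at 10000 to 10300 CPM in WT, 10600 to 10800 in KO1 and 11300 to 11500 in KO2. The 10 luminal markers summed to 921 to 1000 CPM in WT, 798 to 908 in KO1 and 826 to 883 in KO2, with 3 of 7 tested shared falling. Of them PGR was at 0 in every library, and ESR1 and CDH1 stayed under 1 CPM. B cell markers did not reach 1 CPM, and neither did neutrophil markers.

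Each direction of the shared response took 16.7% of the genes tested. By the mean of both clones alone, 3614 genes were higher and 3629 lower, 20.4% each. When each clone also had to pass the test on its own, 1328 genes rose (7.48%) and 1346 fell (7.58%), the latter 823 without WT replicate 2. In KO1 alone 18.0% of genes were higher and 16.8% lower, and in KO2 alone 24.7% in each direction. A further 1333 genes (7.51%) were called in each clone in opposite directions. In 1303 rising and 1267 falling genes called in each clone, the 6 knockout libraries did not overlap the 3 WT libraries. Over all tested genes, knockout libraries lay entirely above WT in 10.7% and entirely below in 10.4%. Calling genes on these same libraries favours such separation, so it adds no support to the calls. The 25 leading rising and 25 leading falling genes were also required not to overlap. Most changes were small. The median absolute log2 change of the rising genes was 0.34 in KO1 and 0.44 in KO2, and that of the falling genes 0.42 and 0.49.

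The clones often moved to different extents. The test of KO1 against KO2 called 48.9% of all tested genes. Of the 2674 genes called in each clone, 1043 also differed between the clones by that test, which is 39% of them (654 genes without KO1 replicate 3). KO1 held the larger change in 279 of these genes and KO2 in 764. For 1791 of the 2674 genes (67%) the 95% interval of the difference lay within 0.5 on the log2 scale. In the plot of KO2 against KO1 changes the genes called in each clone spread on both sides of the diagonal.

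The counts rested on the spread between libraries of 1 cell population. With both clones treated as 1 group of 6 libraries, so that the difference between clones enters the spread, 875 genes rose and 983 fell. With the cell population as a random block in limma-voom, 16 rose and 18 fell. This model applies the same correlation to all genes and still counts libraries as its observations. It is therefore not a test over the 3 populations. At an unadjusted p under 0.05 this last model held 655 rising and 621 falling genes. The correlation between libraries of the same population was estimated at 0.653. The 16 and 18 genes of the random block model are all named in the passages on their functions.

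**Figure D1:**
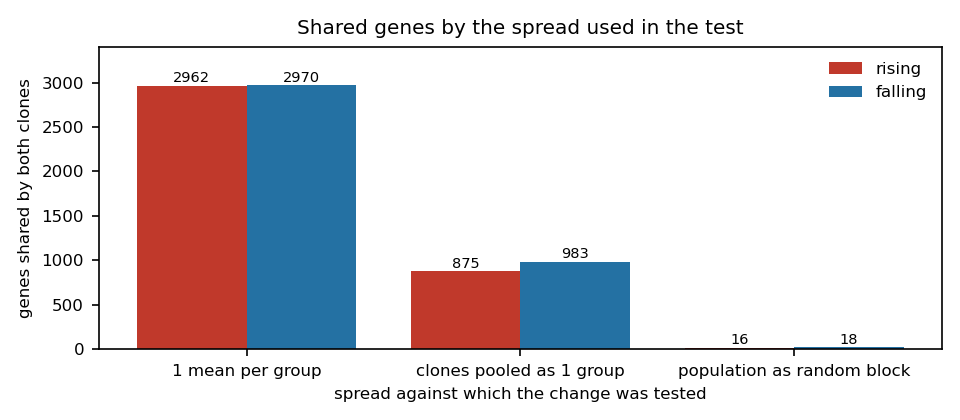
Number of shared genes (y axis) rising and falling under 3 definitions of the spread (x axis). The counts fell from 2962 and 2970 with 1 mean per group to 16 and 18 with the cell population as a random block.

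FBXL12 mRNA fell in both clones and remained detected. It measured 22.2, 23.3 and 21.4 CPM in WT libraries, 9.56, 9.95 and 9.40 in KO1 and 6.14, 6.36 and 5.33 in KO2. The groups did not overlap, and KO2 was lowest in all 3 libraries. The log2 changes were -1.21 ± 0.08 (SE, n = 3 per group; edgeR quasi-likelihood, adjusted p = 2.65e-08) and -1.91 ± 0.08 (adjusted p = 7.29e-11). The FBXL12 gene (ENSG00000127452.8) spans 9810267 to 9827816 of chromosome 19, minus strand (GRCh38, GENCODE release 29). Its up to 10 tested neighbours on each side were also lower, at a median log2 change of -0.38 (KO1) and -0.78 (KO2), and the part of these in its own fall was not tested. FANCD2 mRNA moved in opposite directions, with a mean of 68.4 CPM in WT, 77.4 in KO1 and 57.7 in KO2, and was not shared (log2 changes 0.18 and -0.25).

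Interleukin-1 cytokines were among the largest shared increases, and IL1B came first of the 25 leading rising genes. IL1B, the gene of IL-1 beta, measured 8.38, 7.03 and 8.12 CPM in WT libraries, 57.1, 61.7 and 57.8 in KO1 and 66.9, 70.2 and 66.0 in KO2. Every knockout library thus stood far above every WT library, 7.51-fold higher on average in KO1 and 8.63-fold in KO2. Its log2 changes were 2.90 ± 0.07 (edgeR quasi-likelihood, adjusted p = 3.08e-13) and 3.10 ± 0.07 (adjusted p = 8.66e-14), and the clones differed slightly, by -0.20 (95% interval -0.33 to -0.07). With the cell population as a random block IL1B kept the lowest adjusted p of all genes, 2.79e-05. IL1B (ENSG00000125538.11) lies on chromosome 2 at 112829751 to 112836903, and its neighbours had median log2 changes of 0.13 and 0.03.

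IL1A, which encodes IL-1 alpha and lies beside IL1B, measured 3.96, 2.81 and 3.21 CPM in WT. It reached 11.8, 14.0 and 12.6 in KO1 and 16.9, 16.9 and 19.4 in KO2, a rise by 1.93 ± 0.12 and 2.40 ± 0.12 (adjusted p = 1.81e-08 and 3.86e-10). CASP1, the protease that cleaves IL-1 beta to its active form, rose from 4.20 CPM to 10.5 and 8.55. IL1RL1, the receptor of IL-33, went the other way: 7.62, 7.90 and 7.85 CPM in WT against 1.54, 1.56 and 1.62 in KO1 and 2.43, 1.70 and 1.80 in KO2. The 6 knockout libraries all lay below 2.5 CPM, and the log2 changes of IL1RL1 were -2.31 ± 0.13 and -1.99 ± 0.13. IL18BP, which encodes a decoy for IL-18, fell from 4.27 CPM to 3.15 and 2.57. The adaptor MYD88 was not shared, at 25.1 CPM in WT, 39.7 in KO1 and 22.5 in KO2. Over the whole interleukin-1 list 6 of 16 tested members were shared rising (37.5%) and 4 falling (25%), next to 16.7% of all tested genes. The median log2 changes of the list were 0.18 in KO1 and -0.07 in KO2, next to 0.00 and -0.01 over all tested genes. Of 8 ligand genes listed 4 were tested, of which 3 rose in each clone and 1 was shared falling. The third, IL37, lost its call in KO2 under DESeq2 (adjusted p = 0.0659), without a filter, with the replicate block and without any 1 library except KO2 replicate 1.

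Chemokine genes encode secreted attractants of leukocytes, and most of those tested rose. Of 24 listed, 13 were tested, and 8 of these were shared rising (61.5%, against 16.7% of all tested genes) and 0 falling. In each clone 6 of them rose, and 2 other members were called in opposite directions. A gene low in WT can pass the count filter through the clones where it is high, which favours rising members. The median log2 change of the 13 was 0.94 in KO1 and 1.31 in KO2. Ligands of the receptor CXCR2 were among them. CXCL8 measured 99.1, 67.5 and 80.9 CPM in WT libraries, 208, 276 and 210 in KO1 and 176, 183 and 189 in KO2. Its groups did not overlap, but its libraries spread widely within WT and KO1, and the log2 changes were 1.49 ± 0.17 and 1.14 ± 0.17 (edgeR quasi-likelihood, adjusted p = 0.000549 and 0.00108). CXCL1 measured 27.4, 21.1 and 25 CPM in WT libraries, 61.6, 65.1 and 58.8 in KO1 and 63.7, 65.3 and 67.7 in KO2. The rise of CXCL1 was nearly the same in both clones, 1.33 ± 0.08 and 1.42 ± 0.08, with a difference of -0.08 (95% interval -0.25 to 0.08).

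CXCL3 went from 3.48 CPM to 10.5 and 15.1, and CXCL2 from 5.12 to 10.8 and 12.8. CXCL5 was low, at 0.0921 CPM in WT, 1.30 in KO1 and 0.346 in KO2. CCL20, a ligand of CCR6, went from 0.379 to 0.739 and 1.77. CCL2, a monocyte attractant, went up in KO1 (2.01 CPM) and down in KO2 (0.225) from 1.05 in WT, and CXCL10 was not called. Reads of CXCL1, CXCL2 and CXCL3 can be shared, since these genes are near-identical in parts.

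The 5 rising CXCL genes sit in 1 cluster on chromosome 4, and a stretch of their promoters is shown because each holds the same 9 letters. The windows run from 130 to 31 bases before the RefSeq transcription start (GRCh38.p14) and read 5′ to 3′ along the gene's strand. Capitals mark GGAATTTCC, a form of the kappa B site searched on both strands. In order of genes below, the windows are chr4:73869263-73869362 (plus strand), chr4:74099226-74099325, chr4:74038720-74038819 and chr4:73998708-73998807 (minus strand), and chr4:73740439-73740538 (plus strand).
CXCL1: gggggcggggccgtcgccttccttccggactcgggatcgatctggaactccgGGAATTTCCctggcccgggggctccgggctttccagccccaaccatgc
CXCL2: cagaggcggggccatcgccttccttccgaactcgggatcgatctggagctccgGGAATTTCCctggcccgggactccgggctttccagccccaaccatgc
CXCL3: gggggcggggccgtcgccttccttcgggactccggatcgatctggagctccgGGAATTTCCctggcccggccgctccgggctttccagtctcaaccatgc
CXCL5: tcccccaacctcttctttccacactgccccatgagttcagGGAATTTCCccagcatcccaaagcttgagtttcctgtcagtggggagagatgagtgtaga
CXCL8: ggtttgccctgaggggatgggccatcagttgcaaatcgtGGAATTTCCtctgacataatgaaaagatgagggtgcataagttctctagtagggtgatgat
The 9 letters begin 78 bases before the start in CXCL1 and CXCL3, 77 in CXCL2, 90 in CXCL5 and 91 in CXCL8.

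These letters were chosen after the promoters had been read. A RefSeq promoter (250 bases before to 50 after the start) was matched for 11255 of the tested genes, and 53 of these (0.471%) held GGAATTTCC. Among genes called in each clone, 11 of 995 rising promoters held it (1.11%) and 0 of 1030 falling ones. The 11 include the 5 chemokine promoters from which the letters were taken. That choice raises the rising share, which is therefore no test of the letters. Beside the 5 chemokine genes, the 11 include OAS3, an interferon-induced antiviral enzyme gene, and OPTN, the gene of the ubiquitin-binding protein optineurin. A kappa B consensus that can overlap these letters, GGGRNWYYCC in nucleotide ambiguity code, was found in 6.62% of tested promoters. It was found in 8.14% of those rising and 6.60% of those falling in each clone. Of genes that rose at least 2-fold in each, 13 of 88 promoters (14.8%) held it. The promoters of IL1B and CXCL8 had 0 matches to this consensus, and those of CXCL1, CXCL2 and CXCL3 had 2 each. In each of these 3 promoters the 2 matches overlap in the same stretch, which holds the GGAATTTCC shown above. They are therefore not further sites. TGANTCA, the AP-1 motif, was found in 4.97% of tested promoters, 6.63% of rising and 3.01% of falling ones, but in 12.5% of those rising and 14.6% of those falling at least 2-fold in each clone. The core of the interferon-stimulated response element was found in 2.97%, 4.82% and 3.01%. A match describes the letters and not a bound site.

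Of 18 tested acute-phase and complement genes, 7 were shared rising (38.9%, against 16.7% of all tested genes) and 0 falling. The 7 were 4 of 6 acute-phase and 3 of 12 complement members. After GC removal 8 were shared rising and 2 falling. Over all tested genes GC removal took the shared rising count from 2962 to 3440 and the shared falling count from 2970 to 2719. SAA1, an acute-phase serum amyloid gene, measured 1.47, 1.22 and 0.953 CPM in WT libraries, 10.2, 10.0 and 9.47 in KO1 and 5.49, 5.30 and 4.76 in KO2. KO1 was highest and the 3 groups were apart, with log2 changes of 3.00 ± 0.13 and 2.07 ± 0.13 (adjusted p = 4.04e-10 and 7.68e-09). SAA2 followed at a lower level, 0.182 CPM to 1.19 and 0.624, and its reads can be shared with SAA1. C3, the central complement component, measured 5.45, 4.72 and 4.59 CPM in WT libraries, 17.3, 16.2 and 16.8 in KO1 and 16.1, 18.4 and 17.0 in KO2. Both clones reached the same range, 1.76 ± 0.08 and 1.80 ± 0.09 higher (adjusted p = 1.15e-09 and 2.32e-10), although the neighbours of C3 on chromosome 19 were lower, at -0.48 and -0.81. SERPINA1, which encodes the neutrophil elastase inhibitor alpha-1 antitrypsin, rose from 5.28 CPM to 9.38 and 16.9.

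Of the interleukin-6 family and colony-stimulating factors, 10 of 22 tested members were shared rising (45.5%) and 2 falling (9.09%). Over all tested genes each direction took 16.7%. IL6 measured 1.89, 1.5 and 2 CPM in WT libraries, 4.96, 5.11 and 4.76 in KO1 and 3.50, 3.34 and 4.12 in KO2. All 6 knockout libraries were above WT (log2 changes 1.45 ± 0.13 and 1.02 ± 0.13). IL6R, its receptor, rose from 5.86 CPM to 8.73 and 11.7, and the signal transducer STAT3 from 234 to 264 and 266. LIF went from 71.9 CPM to 91.8 in KO1 and 77.4 in KO2, where it did not pass the test, and CSF3, the gene of granulocyte colony-stimulating factor, from 1.48 to 2.15 and 13.7. The CSF3 call in KO1 was lost without WT replicate 2 (adjusted p = 0.0647) and without KO1 replicate 1 (adjusted p = 0.0591).

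Genes of NF-kB subunits, kinases and inhibitors changed little at the median. Of 25 tested, 6 were shared rising, which is 24.0% next to 16.7% of all tested genes, and 0 falling. None of the 6 passed the test in each clone. The NF-kB subunits and inhibitors held 3 shared rising genes without WT replicate 2. With the GC trend removed they held 8, of which 5 passed in each clone, and the medians were 0.21 and 0.12. Over all tested genes 3440 were then shared rising, next to 2962 before, and 1722 rose in each clone, next to 1328. NFKB2 went from 58.5 CPM to 62.6 and 66.8 and REL from 9.39 to 10.3 and 11.5. The median log2 changes of the 25 were 0.10 in KO1 and 0.02 in KO2 with no GC removal.

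BCL2A1, an anti-apoptotic relative of BCL2, measured 2.25, 1.61 and 1.56 CPM in WT libraries, 7.46, 10.5 and 8.64 in KO1 and 11.6, 11.3 and 13.5 in KO2 (log2 changes 2.27 ± 0.16 and 2.73 ± 0.16). Apoptosis regulators moved in both directions, with 11 of 33 tested members shared rising (33.3%) and 6 falling (18.2%, near the 16.7% over all tested genes). Without WT replicate 2, 3 of these apoptosis regulators were shared falling. Among those falling, BAK1, which encodes a pore-forming death effector, went from 47.5 CPM to 29.4 and 33.1, while its neighbours on chromosome 6 had medians of -0.45 and -0.45. Its log2 changes were -0.69 and -0.52, or -0.51 and -0.31 with the GC trend removed. INHBA, which encodes the subunit of activin A, measured 2.43, 2.27 and 3.07 CPM in WT libraries, 16.4, 16.8 and 16.0 in KO1 and 8.67, 9.54 and 9.81 in KO2. KO1 stood above KO2, with log2 changes of 2.67 ± 0.10 and 1.86 ± 0.11 (adjusted p = 1.39e-10 and 1.89e-09). FST, which encodes the activin-binding inhibitor follistatin, fell from 99.4 CPM to 73.7 and 69.3, and BMP4 fell from 61.6 to 45.8 and 33.6. Of 37 tested members of the activin and TGF-beta pathway, 8 were shared rising (21.6%), 6 falling (16.2%) and 5 called in opposite directions, next to 16.7% of all tested genes in each direction. After GC removal 14 of them were shared rising, while the count over all tested genes went from 2962 to 3440.

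ADGRE1, SIRPA, LCP1, PIK3CG and PLCG2, all among the 25 leading increases, are set together here by their known expression in leukocytes, a grouping made after their values were seen. ADGRE1, the gene of the macrophage receptor F4/80, measured 2.03, 1.63 and 1.57 CPM in WT libraries, 6.87, 8.52 and 8.55 in KO1 and 9.95, 8.13 and 7.81 in KO2. It rose by 2.18 ± 0.14 and 2.29 ± 0.14 (adjusted p = 2.11e-08 and 3.34e-09) in a stretch of chromosome 19 where its neighbours were at -0.50 and -1.06. SIRPA, the receptor of CD47, went from 1.11 CPM to 3.39 and 7.72. LCP1, which encodes the actin-bundling protein L-plastin of leukocytes, went from 5.26 to 30.8 and 13.0. PIK3CG, a leukocyte-enriched PI3-kinase catalytic subunit gene, went from 5.60 to 14.9 and 17.9, and PLCG2, which encodes a phospholipase of B cell and myeloid receptor signalling, from 4.79 to 10.5 and 17.4. The summed macrophage and monocyte markers, 10 genes, lay at 2.10 to 2.62 CPM in WT, 2.12 to 2.78 in KO1 and 2.38 to 3.52 in KO2, with FCGR3A, AIF1 and TYROBP at 0 in every library and 8 of the 10 never reaching 1 CPM. Of its 5 tested members 1 was shared rising. The summed T and NK cell markers lay at 2.16 to 2.66, 4.77 to 5.18 and 1.66 to 1.79 CPM. In bulk RNA, more cells of a type and more RNA per cell cannot be told apart. Of the immune-regulatory surface genes, 7 of 24 tested were shared rising (29.2%) and 4 falling (16.7%, the same share as over all tested genes). CD40 (18.6 CPM to 28.3 and 35.8) and CD47 (81.3 to 105 and 110) were among those rising.

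Interferon-stimulated genes, which encode sensors and effectors of antiviral defence, were another list with many members rising. Of 51 tested, 25 were shared rising (49%) and 5 falling (9.8%), next to 16.7% of all tested genes in each direction. In each clone 18 rose, and 7 were called in opposite directions. OAS2, which encodes an enzyme that senses double-stranded RNA, measured 5.47, 5.48 and 5.51 CPM in WT libraries, 10.5, 10.4 and 10.7 in KO1 and 18.6, 18.2 and 17.8 in KO2. Libraries of 1 group were nearly alike and the 3 groups were apart (log2 changes 0.94 ± 0.07 and 1.73 ± 0.07). OAS3 rose from 11.4 CPM to 29.3 and 21.0. The sensor genes IFIH1 and TLR3 rose from 3.11 to 4.38 and 6.62 and from 2.8 to 5.25 and 4.23 CPM. Not every signalling gene did so: STAT2 fell from 40.9 CPM to 35.9 and 34.8, and IRF7 from 2.58 to 1.74 and 1.52. BST2, the antiviral tetherin gene, was shared falling, but through KO1, at 15.7 CPM in WT, 3.42 in KO1 and 14.5 in KO2. All 4 tested apolipoprotein L genes were shared rising. APOL3 measured 2.20, 1.97 and 2.30 CPM in WT libraries, 6.33, 6.06 and 6.63 in KO1 and 6.08, 7.36 and 7.43 in KO2, and reads can be shared within this family.

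Of 33 tested extracellular matrix genes, 6 were shared rising (18.2%), 4 falling (12.1%) and 8 called in opposite directions. Of this extracellular matrix list, 12 were shared rising after GC removal, which took the count over all tested genes from 2962 to 3440. TGFBI, which encodes a secreted matrix protein induced by TGF-beta, measured 74.8, 73.2 and 76.5 CPM in WT libraries, 157, 156 and 155 in KO1 and 167, 160 and 161 in KO2. The log2 changes were 1.06 ± 0.04 and 1.12 ± 0.04, and their difference was -0.06 (95% interval -0.14 to 0.02). TGFBI had the second lowest adjusted p of the rising genes with the population as a random block (0.000566). SERPINE2, which encodes protease nexin-1, went from 57.6 CPM to 97.5 and 117, and SERPINB2, the gene of a plasminogen activator inhibitor, from 2.37 to 7.44 and 5.43. Matrix proteases and their inhibitors had 10 of 28 tested members shared rising (35.7%) and 1 falling (3.57%), next to 16.7% of all tested genes each way. In each clone 7 of the 28 rose, and 8 were called in opposite directions, as were 7.51% of all tested genes. MMP1, interstitial collagenase, rose by 1.37 ± 0.05 in KO1 and 0.47 ± 0.05 in KO2.

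Of the cathepsin and lysosome list, 9 of 30 tested members were shared rising (30%) and 3 falling (10%). Over all tested genes each direction took 16.7%. CTSL measured 63.1, 65.4 and 67.1 CPM in WT libraries, 115, 122 and 117 in KO1 and 166, 157 and 153 in KO2 (log2 changes 0.85 ± 0.05 and 1.28 ± 0.05). CTSS, a cathepsin of antigen-presenting cells, went from 7.38 to 24.1 and 15.8. Integrins had 7 of 17 tested members shared rising (41.2%) and 3 falling (17.6%), the latter near the share over all tested genes. ITGA2 went from 255 CPM to 382 and 424 and ITGAV from 102 to 142 and 166. The hyaluronan receptor gene CD44 rose by 0.41 ± 0.04 and 0.77 ± 0.04.

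Protocadherins are cell adhesion genes that sit largely in clusters on chromosome 5. Of 30 tested members, 16 were shared rising (53.3%) and 2 falling (6.67%), next to 16.7% of all tested genes. Their median log2 changes were 0.36 and 0.85. Clustered members share exons, so the division of reads among them is uncertain. PCDH1, which lies outside the clusters, measured 3.84, 3.55 and 3.59 CPM in WT libraries, 10.2, 8.62 and 9.21 in KO1 and 11.8, 12.7 and 10.4 in KO2. NRCAM, an adhesion gene of neurons, went from 1.15 CPM to 3.85 and 8.59. APCDD1L, CLIC6 and DMTN rose with no difference called between the clones: APCDD1L by 1.80 and 1.73, the chloride channel gene CLIC6 by 1.27 and 1.35, and the actin-binding dematin gene DMTN by 1.21 and 1.35. MAMDC2 rose by 1.36 in KO1 and 2.55 in KO2, and the difference was called (adjusted p = 4.99e-08).

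Antioxidant genes were among those rising, GCLM and TXNRD1 further in KO2 than in KO1 (adjusted p of the difference 5.37e-06 and 2.69e-08). Of 41 tested targets of the stress regulator NRF2 and related genes, 13 were shared rising (31.7%) and 2 falling (4.88%). Over all tested genes each direction took 16.7%. In each clone 8 of the 41 rose, and 9 were called in opposite directions, as were 7.51% of all tested genes. The median log2 changes of the list were 0.01 in KO1 and 0.34 in KO2. GCLM, which encodes the modifier chain of glutamate-cysteine ligase in glutathione synthesis, measured 48.9, 47.7 and 52.2 CPM in WT libraries, 82.3, 89.1 and 85.4 in KO1 and 110, 112 and 114 in KO2. The 3 groups were apart, with log2 changes of 0.79 ± 0.05 and 1.17 ± 0.05. AKR1C3, an aldo-keto reductase gene with close copies, went the other way round, from 4.09 CPM to 13.7 in KO1 and 10.8 in KO2. TXNRD1, which encodes thioredoxin reductase, rose from 536 CPM to 651 and 933, and HMOX1, the heme oxygenase gene, from 5.75 to 7.82 and 10.7. KEAP1, the gene of the adaptor that delivers NRF2 to a ubiquitin ligase, fell from 117 CPM to 84.6 and 67.0. It lies on chromosome 19 among neighbours at -0.49 and -1, and its log2 changes of -0.47 and -0.81 became -0.25 and -0.55 with the GC trend removed. NFE2L2, which encodes NRF2 itself, measured 113 CPM in WT, 123 in KO1 and 180 in KO2.

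Among the leading falling genes, CPA4, a carboxypeptidase gene, measured 41.0, 43.1 and 41.6 CPM in WT libraries, 20.9, 19.8 and 20.5 in KO1 and 18.3, 18.6 and 17.6 in KO2. The clones lay close together and clear of WT (log2 changes -1.04 ± 0.05 and -1.21 ± 0.05, adjusted p = 2.57e-09 and 1.42e-10), with neighbours at 0.05 and 0.13. SERPINB9, which encodes the granzyme B inhibitor, measured 9.02, 9.05 and 10.2 CPM in WT libraries, 3.13, 2.96 and 3.42 in KO1 and 3.94, 3.55 and 3.97 in KO2. ARG2, mitochondrial arginase, measured 13.4, 13.7 and 13.4 CPM in WT libraries, 5.39, 6.15 and 5.49 in KO1 and 6.95, 6.12 and 6.59 in KO2. Both were below WT in all 6 knockout libraries. The difference between the clones for ARG2 was -0.21 (95% interval -0.39 to -0.02; adjusted p = 0.0617).

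PGM5, a phosphoglucomutase relative found at cell junctions, measured 45.2, 48.4 and 47.7 CPM in WT libraries, 15.7, 14.9 and 16.4 in KO1 and 5.05, 4.26 and 4.94 in KO2. It fell in both clones and further in KO2, by 1.72 (95% interval 1.56 to 1.88). MARCH1, a membrane-bound ubiquitin ligase gene, went from 8.71 CPM to 3.09 and 1.78. FOXQ1, a forkhead transcription factor gene, went from 11 to 6.02 and 5.12. KLHDC3, the substrate receptor of another ubiquitin ligase, went from 176 to 104 and 96.9, and its neighbours were at -0.47 and -0.37. The non-coding DANCR transcript went from 117 CPM to 65.9 and 76.0, and TIMM44, an import factor of mitochondria, from 92.5 to 56.8 and 44.3 with neighbours at -0.51 and -0.84.

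A few genes were close to lost in both clones and were picked out after their values were seen. AMOT, the gene of the YAP-binding scaffold angiomotin, measured 4.21, 4.18 and 4.86 CPM in WT libraries, 0.115, 0.0886 and 0.183 in KO1 and 0.0574, 0.167 and 0.205 in KO2. Its log2 changes were -5.06 ± 0.25 and -4.88 ± 0.26 (adjusted p = 1.46e-09 and 7.62e-10), while its neighbours on the X chromosome were at 0.25 and -0.26. NRK, a kinase gene also on the X chromosome, measured 0.996, 0.938 and 0.922 CPM in WT and had reads in 1 of the 6 knockout libraries, at 0.0127 CPM. P2RY10, a receptor gene of the same chromosome, had the same pattern, with 0.722, 0.675 and 0.636 CPM in WT. TMPRSS15, the enteropeptidase gene, had 52, 49 and 43 counts in the WT libraries and 0 in all 6 knockout libraries. Against a floor of 3 counts over these 6 libraries, it was at least 92.2-fold lower. AC107896.1, GTSF1 and AL590483.2 were likewise at 0 in all 6 and at least 38.4-fold, 32.0-fold and 28.8-fold lower. In the other direction COL6A2, a collagen VI chain gene, had 0 counts in WT, 8 in KO1 and 168 in KO2, at least 2.42-fold and 68.5-fold higher against 3 counts over the WT libraries. Its call in KO1 was lost without WT replicate 1 and without KO1 replicate 3.

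Of the lists plotted by share, cytosolic ribosomal proteins held the highest percentage of falling genes. Of 76 cytosolic ribosomal protein genes tested, 53 were shared falling (69.7%, against 16.7% of all tested genes) and 0 rising, a 0 that held under each scaling, filter and left-out library run, and 41 fell in each clone. The decreases were small, with a median log2 change of -0.29 (KO1) and -0.21 (KO2). These counts and medians are with no GC removal. RPS28 measured 159, 203 and 168 CPM in WT libraries, 101, 81.4 and 87.0 in KO1 and 59.1, 69.3 and 43.6 in KO2. Its log2 changes, larger than the list's median, were -0.97 ± 0.19 and -1.62 ± 0.19, or -0.76 and -1.38 with the GC trend removed. It lies on chromosome 19 among neighbours at -0.49 and -0.87. RPL36, on the same chromosome with neighbours at -0.32 and -0.26, went from 214 CPM to 139 and 138, with log2 changes of -0.63 and -0.64, or -0.36 and -0.32 with the GC trend removed. Retrocopies and multiply mapping reads make levels in this family uncertain. The count of members that fell in each clone ranged from 29 without WT replicate 2 to 46 without KO1 replicate 2.

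Mitochondrial ribosomal proteins had 31 of 77 tested members shared falling (40.3%) and 3 rising (3.9%). Nuclear-encoded respiratory chain genes had 27 of 70 falling (38.6%) and 1 rising (1.43%), and 10 called in opposite directions. These counts are with no GC removal, and over all tested genes each direction took 16.7%. Their median log2 changes were -0.18 in KO1 and -0.05 in KO2 for both lists. MRPL4 measured 56.1, 70.2 and 63.4 CPM in WT libraries, 41.7, 29.9 and 37.5 in KO1 and 26.7, 28.7 and 22.6 in KO2, again on chromosome 19 with neighbours at -0.48 and -0.93. Its log2 changes were -0.80 and -1.28, or -0.46 and -0.84 with the GC trend removed. CYC1, which encodes cytochrome c1 of complex III, went from 285 CPM to 203 and 185; with each library's trend on GC content removed it was at -0.15 and -0.20 and no longer called. After the same removal the respiratory chain gene NDUFA13 (-0.28 and -0.24) and MRPL38 (-0.365 and -0.409) were called in neither clone. MRPL41 was then not called in KO2, whereas NDUFS7, NDUFA11 and MRPL12 kept both calls. The 13 genes of the mitochondrial genome had a median log2 change of 0.44 in KO2 and -0.04 in KO1. The bar plot of lists sets these groups beside the cytokine lists.

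F-box and SCF genes did not move in 1 direction: 17 of 67 tested were shared rising (25.4%) and 19 falling (28.4%). Over all tested genes each direction took 16.7%. Of these F-box proteins and SCF core genes, 12 were shared falling without WT replicate 2. Within the family of FBXL12, F-box proteins with leucine-rich repeats, 4 of 20 were shared rising (20%) and 10 falling (50%). FBXL13 rose by 0.43 ± 0.07 and 0.57 ± 0.07 (9.88 CPM to 13.3 and 14.7). SKP2, the receptor that targets the cell cycle inhibitor p27, fell from 71.5 CPM to 64.3 and 65.9. Of the beta-TrCP genes, FBXW11 rose from 117 to 136 and 129 CPM, and BTRC, called by the mean of both clones but not in KO1, went from 47.2 to 49.0 and 57.1. UBE2M, the NEDD8-conjugating enzyme gene of cullin activation, fell from 114 CPM to 87.2 and 96.4.

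Of 28 tested Fanconi anaemia and crosslink repair genes, 5 were shared rising (17.9%), 8 falling (28.6%) and 5 called in opposite directions, with medians of 0.02 and -0.10, next to 16.7% of all tested genes in each direction. With the GC trend removed 3 of this Fanconi anaemia and crosslink repair list were shared rising, while the count over all tested genes went from 2962 to 3440. FAAP100, a partner in the core complex that ubiquitinates FANCD2, fell from 19.7 CPM to 12.5 and 10.5 (log2 changes -0.66 ± 0.09 and -0.91 ± 0.10; -0.31 and -0.44 with the GC trend removed). The core complex gene FANCE fell from 55.6 CPM to 40.1 and 42.7, with neighbours at -0.41 and -0.38 and log2 changes of -0.31 and -0.21 after GC removal, next to -0.47 and -0.38 before it. FANCA fell from 52.8 to 46.4 and 40.9. FANCF, of the same complex, rose from 2.71 CPM to 5.22 and 4.30. Replication licensing and fork genes had 16 of 56 tested members shared falling (28.6%) and 2 rising (3.57%), with medians of -0.08 and -0.01. Of this replication licensing and fork list, 8 were shared falling without WT replicate 2. The helicase subunit gene MCM7 fell from 429 CPM to 353 and 386, and the DNA polymerase gene POLE from 89.7 to 70.3 and 66.4. Of 29 tested mitotic genes, 10 were shared rising (34.5%) and 3 falling (10.3%). In each clone 3 of the 29 rose, and 6 were called in opposite directions. Among them CENPE, a kinesin of the kinetochore, rose from 133 CPM to 161 and 165 (log2 change in KO1 0.28, or 0.18 with the GC trend removed), and AURKB, the kinase of the chromosomal passenger complex, fell from 150 to 112 and 135.

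Rising and falling genes differed in base composition and position. The median GC content of all tested genes was 47.85%, that of genes rising in each clone 44.66% and that of genes falling in each clone 56.86%. With the GC trend of each library removed, the medians were 49.31% over 1722 rising and 48.37% over 1262 falling genes. Of the 1328 and 1346 genes of the first count, 1198 and 915 were called again. Both sets were expressed above the median of all tested genes (10.82 CPM), at 27.14 CPM for rising and 24.07 CPM for falling genes.

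By chromosome, 22.9% of the 1146 tested genes of chromosome 19 fell in each clone, 17.9% on chromosome 6 and 14.0% on chromosome 16, next to 7.58% over all chromosomes. With the GC trend removed the order turned, with 20.7% on chromosome 6, 16.1% on chromosome 19 and 8.59% on chromosome 16. Rising genes then took 9.34% of chromosome 19, next to 4.8% with no GC removal. Over all tested genes GC removal took the count rising in each clone from 1328 to 1722 and the count falling from 1346 to 1262. Of the 25 leading falling genes, 12 lie on chromosome 19. Rising genes took 14.1% of chromosome 2 and 12.8% of chromosome 4, next to 7.48% overall. In a comparison limited to 9405 genes whose neighbours had a median change under 0.15 in each clone, 8.7% rose and 5.07% fell in each clone. This limit was chosen after the data were seen. Whether copy number differed between the clones and the control population was not tested.

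Large shared changes were mostly in genes of low level. At least 2-fold in each clone, 141 genes rose (0.794%) and 70 fell (0.394%), and 88 of these 211 differed in size between clones. Their median level was 0.711 CPM for the rising and 0.345 CPM for the falling genes. A group mean of 10 CPM was reached by 19 of the rising and 5 of the falling genes. RASSF2, the gene of a RAS-binding tumour suppressor and 1 of the 19, went from 4.78 CPM to 9.80 and 21.9. LINC01602, a long non-coding RNA, fell from 2.33 CPM to 0.345 and 0.400. At least 4-fold in each clone, 24 genes rose and 20 fell, with IL1B, ADGRE1, BCL2A1 and SAA1 the only rising ones above 5 CPM in each clone. RBM47, which encodes an RNA-binding protein of epithelial splicing, went from 0.405 CPM to 1.70 and 3.84. No gene went from at most 0.1 CPM in each WT library to at least 1 CPM in each knockout library, or the reverse. At the edge of the shared set, NAB2 lay just inside with an edgeR adjusted p of 0.04984 (log2 changes -0.17 and -0.17), and VAMP1 just outside at 0.05001 (-0.34 and -0.32).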

How the data were processed

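RNA of 9 MDA-MB-231 libraries was sequenced, 3 per group. The deposited values are raw counts for 61155 gene symbols in every library, without normalization. Trim Galore and HISAT2 were used, per the submitters' processing notes, which name the builds hg38, GRCm38 and mm10 without a role; the symbols are human. No source used here gives the counter, annotation, strand setting or treatment of multiply mapped reads, so antisense genes and near-identical copies are uncertain.

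Counts were filtered with filterByExpr (17759 genes kept), scaled with TMM and fitted with edgeR 4.0.16 in R 4.3.3 by the quasi-likelihood test with robust settings and 1 mean per group over all 9 libraries. A low gene can pass the filter only through the group where it is high, and such genes add to the shares of tested list members. Contrasts were the mean of KO1 and KO2 minus WT, each clone minus WT, and KO1 minus KO2. P-values were adjusted by Benjamini-Hochberg over all tested genes at a threshold of 0.05, and adjusted p-values in the text are from it where no other tool stands beside them. The standard error is the log2 change divided by the square root of F. Depth was 52427841 to 97243363 counts, and 0 counts in a library allow up to 3, which is 0.0309 to 0.0572 CPM, for counting error only. Libraries of a group differed by more than sampling noise, with chi-square per degree of freedom from 6.36 to 31.9. DESeq2 1.42.0, limma 3.58.1, other scalings and filters, GC removal, blocks and left-out libraries served as alternatives. The calling step was tested on simulated data.

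The members, gene lists (34, with 10 marker lists and 16 families) and tests were chosen with earlier results of these data known. All 1193 list genes matched a symbol, 1 by another name. Named were FBXL12 and FANCD2, the 25 rising and 25 falling genes ranked highest by the lesser of their changes in KO1 and KO2 (called in each, mean log2 CPM of at least 2, libraries not overlapping), and up to 4 members per list called in each clone; not all of these are described. Further list members given as examples (such as MYD88, CCL2, STAT3, BST2, MMP1, TXNRD1, SKP2, FBXW11 and MCM7) were chosen after their values were seen, as were AMOT, NRK, P2RY10, KLHDC3, DANCR, TIMM44, RASSF2, RBM47, TMPRSS15 and the other genes at 0. Positions are from GENCODE release 29 (GRCh38), which held 55780 symbols at 1 place. A gene's neighbours are up to 10 tested genes on each side. Promoters are from RefSeq (GRCh38.p14). Some chemokine gene models in GENCODE start further upstream than in RefSeq.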

Additional observations from a re-analysis of the deposited data

Results flagged for a closer look

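For the genes here the change from WT differed between the clones by the edgeR quasi-likelihood contrast of KO1 against KO2 at an adjusted p under 0.05. All but FANCD2 had the same direction in both clones. Values are log2 differences, KO1 minus KO2. KO1 rose further in LCP1 (1.25) and CXCL5 (1.92). KO2 rose further in CSF3 (-2.67), the cathepsin gene CTSV (-1.37), BTG2 (-1.71), PCDH15 (-1.74), ZNF880 (-1.90) and COL6A2 (-4.75). KO2 fell further in PGM5 (1.72), its antisense neighbour PGM5-AS1 (5.22), PCDH11X (2.97) and AC097451.1 (7.11). Reads of PGM5 and PGM5-AS1 cannot be told apart without strand. The widest difference was in EEF1A2 (10.03), a translation elongation factor gene, at 27.9 CPM in WT, 19.1 in KO1 and 0.0167 in KO2. KO1 fell further in KCTD15 (-4.80), LDB2 (-5.86) and LINC02241 (-7.42). COL6A2, AC097451.1, LDB2 and LINC02241 have a group at 0, so their fitted differences depend on the prior count and give no bound. FANCD2 went in opposite directions, with a difference of 0.42. What sets these differences was not tested.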

How the results depend on the processing

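None of the named genes tested under an alternative reversed. Falling genes slightly outnumbered rising ones in the main count of shared genes (2970 and 2962). Rising genes were the more numerous under upper quartile scaling and with the GC trend removed (3440 rising and 2719 falling). Filtering at 1 CPM in 3 libraries left 100 genes at 2-fold in each clone, since fewer genes were tested. With both clones pooled 875 genes rose and 983 fell, and with the cell population as a random block 16 and 18. With the GC trend of each library removed, 1576 genes called in each clone differed in size; the cause was not tested. Limited to genes with quiet neighbours, a choice made after seeing the data that tests fewer genes, the counts were 1816 shared rising, 1185 shared falling, 818 and 477 in each clone, 111 at 2-fold and 465 differing in size. Leaving out 1 library at a time gave 2445 to 3234 shared rising, 2107 to 3060 shared falling, 992 to 1483 and 823 to 1472 in each clone, 190 to 232 at 2-fold and 654 to 1037 differing in size. The replicate block gave 2756 and 2700 shared, 1221 and 1135 in each clone, 194 at 2-fold and 899 differing in size. Deviations of same-numbered libraries from their group means correlated from -0.526 to 0.478 between groups. Whether the replicate numbers mark anything the libraries had in common was not tested. DESeq2 gave 2947 and 2949 shared genes, and upper quartile scaling 3315 and 2705. Of 210 named genes, 181 lost the call by the mean of both clones with the random block, 32 with pooled clones, 7 with GC removal and at most 8 without any 1 library. The stricter call in each clone was lost by 37 without WT replicate 2, by 9 to 34 without another library, by 21 with GC removal, 16 with the replicate block, 13 without a filter, 6 under DESeq2 and 1 under upper quartile scaling. Genes under about 0.06 CPM rest on 3 counts or fewer per library. Some list medians near 0 changed sign without 1 library. List examples outside the 210 were not followed through these alternatives.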
